A study of Mus musculus with 8 samples.

Results

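The strongest Pax6 sites of control alpha cells were 218 of the 26244 sites in the authors' deposited table, or 0.831%. A site was taken where its control KD concentration was at least 8 and a peak summit lay within 250 bp of its middle in each of the 4 Pax6 libraries. The concentration is the authors' log2 mean signal over the 2 libraries of a group, so 8 stands for a linear value of 256. The signal of control KD and the summits therefore chose the sites, and these values are given as a description.

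Pax6 was immunoprecipitated from alphaTC1 cells, a line of mouse pancreatic alpha cells derived from a glucagon-producing tumour, and the recovered DNA was sequenced (ChIP-seq). Cells of the Paupar KD group had received antisense oligonucleotides against Paupar, a long non-coding RNA transcribed beside the Pax6 gene, and cells of the control KD group had received oligonucleotides of a scrambled sequence. Each group had 2 Pax6 libraries, called duplicate biological samples in the series' design, and all cells were of the same line and under an oligonucleotide. The 4 input libraries were not analysed here, read depth is unknown, and no level of Paupar RNA was measured by this assay.

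Pax6 is a transcription factor with a paired domain and a homeodomain, each of which can contact DNA. In the pancreas it is needed for the formation of endocrine cells and for transcription of the glucagon gene in alpha cells. Like most factors of its kind it binds near gene starts and at distant enhancers, and a nearest gene is not by itself a regulated gene.

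The summit list of Paupar KD replicate 1 stood apart at strong promoter sites. The authors' deposited table held 262 sites with a control KD concentration of at least 8, and 44 of them lacked a summit in at least 1 list. Paupar KD replicate 1 had no summit at all 44 of these sites, while Paupar KD replicate 2 had none at 5, control KD replicate 1 at 5 and control KD replicate 2 at 12. Of the 44 sites, 41 (93.2%) were annotated to promoters. At the 139 promoter sites of this strength, 70.5% had a summit in Paupar KD replicate 1 (exact 95% interval 62.2 to 77.9), 96.4% in Paupar KD replicate 2, 96.4% in control KD replicate 1 and 92.1% in control KD replicate 2. At the 123 sites elsewhere the shares lay between 97.6% in Paupar KD replicate 1 and 100% in Paupar KD replicate 2 and in control KD replicate 1. Without the requirement for Paupar KD replicate 1 the rule took 246 sites. What set this list apart was not tested.

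**Figure D1:**
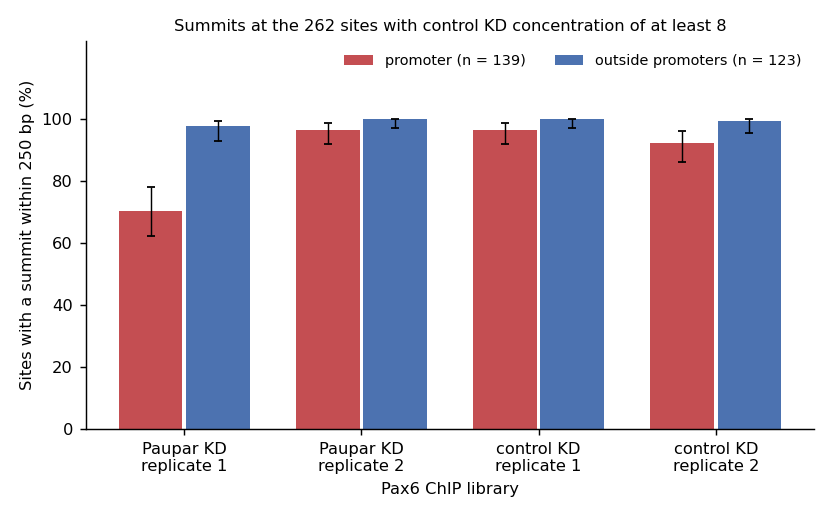
Share of the sites with a control KD concentration of at least 8 that had a summit within 250 bp, in percent, for each of the 4 libraries (bars, with exact 95% intervals), shown apart for the 139 promoter sites and the 123 sites elsewhere. Paupar KD replicate 1 had a summit at 70.5% of the promoter sites, and every other bar stands at 92.1% or higher.

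Sequences are shown for 7 strongest sites at gene starts, chosen to cover the highest promoter signals and genes named further on. They come from the RefSeq promoter windows of GRCm38.p6, which hold 250 bases before and 50 after a start. Each sequence is the stretch within 100 bases of the site's middle that lies before the start, written 5′ to 3′ on the strand of the gene. Capitals mark matches on either strand to the motifs spelled out in the next paragraph.
Wipi2 (chr5:142629342-142629541, plus strand): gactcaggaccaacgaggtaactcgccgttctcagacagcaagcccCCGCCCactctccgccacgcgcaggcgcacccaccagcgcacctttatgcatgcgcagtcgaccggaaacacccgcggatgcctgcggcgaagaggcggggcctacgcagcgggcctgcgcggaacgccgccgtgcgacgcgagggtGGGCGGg
Cherp (chr8:72475255-72475454, minus strand): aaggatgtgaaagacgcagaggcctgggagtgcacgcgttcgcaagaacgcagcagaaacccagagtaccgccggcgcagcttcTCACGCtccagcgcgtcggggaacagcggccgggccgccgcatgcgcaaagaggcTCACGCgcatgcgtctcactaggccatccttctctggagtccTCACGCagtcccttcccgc
Chchd5 (chr2:129129555-129129699, plus strand): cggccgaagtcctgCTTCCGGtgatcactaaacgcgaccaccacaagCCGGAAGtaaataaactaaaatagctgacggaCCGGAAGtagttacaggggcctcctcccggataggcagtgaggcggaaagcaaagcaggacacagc
Bcl2l13 (chr6:120836041-120836229, plus strand): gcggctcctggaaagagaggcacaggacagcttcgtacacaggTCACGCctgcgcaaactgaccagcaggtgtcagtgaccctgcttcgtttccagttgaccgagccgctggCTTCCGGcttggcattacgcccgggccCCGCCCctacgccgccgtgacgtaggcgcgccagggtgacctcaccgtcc
Rps28 (chr17:33824563-33824707, minus strand): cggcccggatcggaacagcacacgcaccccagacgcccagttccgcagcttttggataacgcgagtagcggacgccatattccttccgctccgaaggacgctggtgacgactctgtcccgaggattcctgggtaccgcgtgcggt
Mrps14 (chr1:160194965-160195147, plus strand): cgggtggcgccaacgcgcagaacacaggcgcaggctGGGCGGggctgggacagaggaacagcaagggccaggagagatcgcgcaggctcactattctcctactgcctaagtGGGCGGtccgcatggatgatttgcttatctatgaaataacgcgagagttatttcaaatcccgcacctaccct
Atg13 (chr2:91710593-91710734, minus strand): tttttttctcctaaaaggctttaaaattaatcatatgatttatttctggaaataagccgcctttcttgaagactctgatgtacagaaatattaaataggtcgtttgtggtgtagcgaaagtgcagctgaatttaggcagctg
Wipi2 and Mrps14 each held 2 matches to GGGCGG, Chchd5 held 3 to CCGGAAG, and Cherp held 3 to TCACGC. Bcl2l13 held 1 match to each of these 3 motifs, and Rps28 and Atg13 held none. The sites of Rps28 and Atg13 also lay in windows of Ndufa7 and Harbi1, in that order, on the opposite strand. The stretches differed in CG dinucleotides, with 28 in that of Wipi2 and 3 in that of Atg13.

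The middles of 37 strongest sites lay in 42 RefSeq promoter windows, and those of 423 other sites with 4 summits lay in 530 windows, out of 32851 windows in all. Some sites lay in several overlapping windows, so the same match can be counted more than once. The exact intervals of window shares treat the windows as independent and do not cover this. A total of 10 motifs were searched on both strands over the whole windows of 300 bases. Of the forms written for Pax6, TTCACGC and a longer consensus that contains it stand for the paired domain, and a palindrome of TAAT for the homeodomain. At least 1 of these 3 forms occurred in 0 of the 42 windows, which allows a share of up to 8.41% (exact 95% interval), against 5.09% of the windows at other sites and 1.74% of all windows. The shorter core TCACGC, added after the data were seen and contained in both paired forms, was in 5 of the 42 windows (11.9%), 12.6% of the windows at other sites and 6.68% of all. No match says only that these letters were not in these windows.

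GC-box and Ets letters were common in these windows. GGGCGG, the box that Sp and Klf factors bind, was in 25 of the 42 windows (59.5%, exact 95% interval 43.3 to 74.4), 46.0% of the windows at other sites and 35.7% of all windows. CCGGAAG, a form bound by Ets factors, was in 16 windows (38.1%, 23.6 to 54.4), 25.8% of those at other sites and 8.86% of all. CCAAT, bound by NF-Y, was in 38.1%, 46.4% and 37.4% of these sets in the same order. None of these motifs contains another of them. Searched in the site's own 100 bp alone, GGGCGG was in 31.0% of the 42 windows, CCGGAAG in 21.4%, CCAAT in 4.76% and the core TCACGC in 2.38%. The cyclic AMP response element TGACGTCA was in 4.76% of the windows at strongest sites, 5.66% of those at other sites and 1.79% of all. The remaining motifs were in at most 2.38% of the 42 windows: the Foxa form TGTTTAC (2.64% at other sites, 3.65% of all), the Nrf1 palindrome (2.08% and 0.971%) and the Rfx palindrome, which was in none of the 42 (0.189% and 0.0944%). The windows at strongest sites had a median of 21 CG dinucleotides, against 17 at other sites and 7 over all windows. Their median GC content was 57.5%, against 55.3% at other sites and 52.7% over all windows. The part of base composition in the motif shares was not tested.

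Promoters held 98 of the 218 strongest sites in the authors' deposited table, or 45.0% (exact 95% interval 38.2 to 51.8), against 27.7% of the 5032 other sites with 4 summits (26.4 to 28.9). Introns held 56 (25.7%), against 36.5% of the other sites, and distal intergenic sequence held 52 (23.9%), against 29.8%. A further 6 strongest sites lay just downstream of a gene, 4 in exons, 2 in 3′ UTRs and 0 in 5′ UTRs. Because sites near each other are not independent, the intervals cover counting error only. With no requirement on summits, 139 of the 262 sites of this strength were promoter sites, or 53.1%, and without the requirement for Paupar KD replicate 1 the share was 50.4%.

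The share of promoters was at least 41.4% in each of 5 ranges of control KD concentration in the authors' deposited table. It was 45.3% of the 53 strongest sites between 8.5 and 9 and 41.4% of the 29 between 9 and 9.5, and 5 of the 10 sites above 9.5 were promoter sites. Among the sites with 4 summits just below the minimum, 41.4% of 191 between 7.5 and 8 and 38.1% of 462 between 7 and 7.5 lay in promoters.

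The strongest sites lay close to gene starts, with a median distance of 4.56 kb (95% interval of the median 1.86 to 10.7), against 12.6 kb for other sites with 4 summits (11.8 to 13.6). Their distances had no single range. The window of 22 sites (10.1%) held a start, 64 (29.4%) lay between 1 bp and 1 kb from one, and 63 (28.9%) lay between 10 and 50 kb away. Of the other sites 7.27% held a start and 13.5% lay between 1 bp and 1 kb away. Without the requirement for Paupar KD replicate 1 the median distance was 2581 bp. Beyond 200 kb lay 4 sites, those of Egln3, a prolyl hydroxylase of the oxygen response (328 kb from its start, inside an intron of Npas3), of the integrin subunit gene Itga1 (-245 kb), of the long non-coding RNA gene Gm20554 (231 kb) and of Wwox (225 kb). The next farthest was that of C030029H02Rik (-185 kb). A negative distance is upstream of the start.

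**Figure D2:**
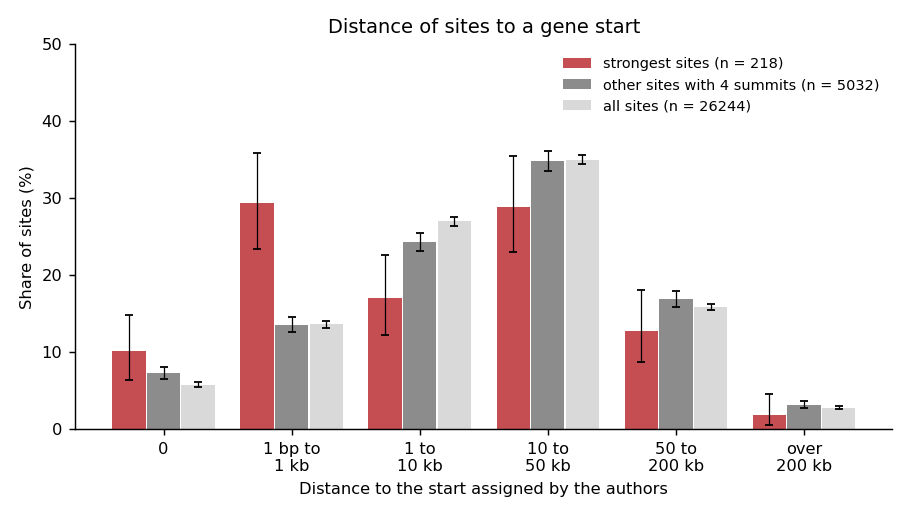
Share of sites in percent, with exact 95% intervals, by absolute distance to the annotated gene start, for the 218 strongest sites, the 5032 other sites with 4 summits and all 26244 sites. The strongest sites stand highest in the bin from 1 bp to 1 kb, with 29.4% against 13.5% of the other sites.

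The authors' deposited table assigned the strongest sites to 214 genes, of which 4 had 2 sites each: Snd1, Pde1c, Wwox and 1700025C18Rik. Protein-coding genes took 186 sites (85.3%), long non-coding RNA genes 25 (11.5%) and microRNA genes 6 (2.75%), against 86.5%, 10.6% and 2.42% of the other sites with 4 summits. By the authors' deposited table the 2 sites of Wwox, a WW-domain oxidoreductase gene, had 8.44 and 7.81 in Paupar KD, against 8.53 and 8.25 in control KD, and those of 1700025C18Rik 8.45 and 7.73 in Paupar KD, against 8.88 and 8.18 in control KD. For 8 of the 47 intron and exon sites whose host gene could be read (17.0%, against 19.4% of the other sites), the gene that held the site was not the assigned one. The site assigned to Plekha1 lay in intron 2 of 6 of Fgfr2, which encodes a fibroblast growth factor receptor, that of Jmjd1c in Reep3, that of Gm13029 in Igsf21 and that of Dpysl3 in Stk32a. The sites assigned to Mir3108, Lmod2 and 1700025C18Rik lay in Zfhx3, Wasl and Cdh22, in the order given, and that of Egln3 in Npas3.

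The highest control KD signal of all was at the promoter of Wipi2, whose product binds phosphoinositides in autophagy. The site (chr5:142629392-142629491, 51 bp upstream of the start) had a concentration of 9.34 in Paupar KD and 10.01 in control KD in the authors' deposited table. Its summit ranked 1300 of 15611 by score in Paupar KD replicate 1 and 151 of 17942 in Paupar KD replicate 2, against 84 of 14311 in control KD replicate 1 and 86 of 9983 in control KD replicate 2. The score is the authors' −log10 q-value of a summit, and a rank places a summit within its own list only. The promoter site of Chchd5, a small mitochondrial protein gene (chr2:129129605-129129704), had 9.05 in Paupar KD and 9.65 in control KD in the same deposited table by the authors, and ranked 48 and 29 in Paupar KD replicates 1 and 2 and 27 and 25 in control KD replicates 1 and 2. The Chchd5 summit was thus near the top of every list, and that of Wipi2 near the top of 3 lists.

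The other 8 of the 10 highest promoter sites with a summit in all 4 lists belonged to genes of varied roles. In the authors' deposited table their Paupar KD and control KD concentrations were 9.47 and 9.97 for Pisd-ps3, a pseudogene on an unplaced contig, and 9.13 and 9.67 for Cherp, which encodes a protein of calcium stores and splicing. They were 8.90 and 9.57 for Blvra, the biliverdin reductase gene, 8.92 and 9.49 for Rex1bd, and 8.79 and 9.36 for Tcaf1, a regulator of Trp channels, in the authors' deposited table. The remaining 3 were Trir (8.68 in Paupar KD and 9.33 in control KD), the zinc finger gene Zfp651 (8.42 and 9.29) and Bcl2l13 of the Bcl2 family (8.80 and 9.25), again from the authors' deposited table. The summit of Tcaf1 ranked 51, 34, 22 and 16 in Paupar KD replicates 1 and 2 and control KD replicates 1 and 2, in that order, and that of Trir 1264, 415, 339 and 285.

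Outside promoters the 2 sites with the highest control KD signal also had summits near the top of all 4 lists. The site in intron 2 of Fgfr2 (chr7:130838153-130838252, assigned to Plekha1 at -27.5 kb) had 9.57 in Paupar KD and 9.96 in control KD in the authors' deposited table. Its summit ranked 2 in each Paupar KD library, 3 in control KD replicate 1 and 1 in control KD replicate 2. The site at -50.7 kb from the start of the zinc finger gene Zfp648 (chr1:154150376-154150475) had 9.38 in Paupar KD and 9.90 in control KD in the authors' deposited table, and ranked 6, 6, 6 and 3. Both were thus among the 6 highest summits in every library.

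Pde1c, a calmodulin-dependent phosphodiesterase gene, had a site of this kind as well as a promoter site. The intron 3 site (chr6:56373367-56373466) had 9.42 in Paupar KD and 9.44 in control KD in the authors' deposited table, with summit ranks of 5 and 10 in Paupar KD replicates 1 and 2 and 1 and 2 in control KD replicates 1 and 2. The promoter site (chr6:56362796-56362895, the start inside the window) had 8.36 in Paupar KD and 9.06 in control KD there, in the authors' deposited table, with ranks of 101 and 129 in Paupar KD and 139 and 83 in control KD. The 2 sites, more than 10 kb apart, were thus assigned to 1 gene and had different ranks in all 4 lists.

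The rest of the 10 highest sites outside promoters lay in introns, between genes or just downstream of one. In the authors' deposited table the Paupar KD and control KD concentrations were 8.89 and 9.80 at Tmem51os1, 9.81 and 9.62 at BC003965, 8.79 and 9.5 at Ppp1r26 and 8.67 and 9.49 at Gm13016. BC003965 was the only one of these 4 with more signal in Paupar KD, and its summit ranked 1, 1, 4 and 9 in Paupar KD replicates 1 and 2 and control KD replicates 1 and 2. In the same order of libraries the summit ranked 21, 18, 13 and 13 at Tmem51os1, 24, 25, 41 and 8 at Ppp1r26, and 54, 42, 12 and 29 at Gm13016. These 3 summits stood lower than that of BC003965 in Paupar KD replicates 1 and 2. The same table of the authors' deposited values gave 9.05 in Paupar KD and 9.43 in control KD in intron 6 of Zfp568, a zinc finger repressor gene, and 8.86 and 9.42 in intron 17 of Arhgef7, a guanine nucleotide exchange factor gene. Aacs, acetoacetyl-CoA synthetase (8.72 and 9.28), and the non-coding gene Gm14204 (8.55 and 9.28) shared the last place in the authors' deposited table.

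The strongest sites had high summit scores, but not in the same way inside and outside promoters. Their median within-list percentile was 98.2 in Paupar KD replicate 1 and 98.9 in Paupar KD replicate 2, against 99.03 in control KD replicate 1 and 98.7 in control KD replicate 2. The group means of these medians were 98.6 ± 0.52 in Paupar KD and 98.9 ± 0.235 in control KD (SD, n = 2 libraries each), a difference of -0.283. No test bears on it, because the sites were chosen by control KD signal and an exact permutation of 2 against 2 libraries cannot give a p below 0.33. Promoter sites had a median percentile of 94.5 and 98.2 in Paupar KD replicates 1 and 2 and 97.2 and 96.4 in control KD replicates 1 and 2. Sites outside promoters had 99.1 and 99.4 in Paupar KD and 99.5 and 99.2 in control KD. In each of the 4 lists the promoter sites thus stood lower, although the median concentrations in the authors' deposited table were 7.93 in Paupar KD and 8.40 in control KD for promoter sites, and 7.97 in Paupar KD and 8.41 in control KD for the others.

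Only 62 of the 218 strongest sites (28.4%) lay in the top 1% of all 4 lists, and 175 (80.3%) in the top 10% of all 4. The other 43 (19.7%) fell below the top 10% in at least 1 list, and 37 of these were promoter sites. Paupar KD replicate 1 had 39 strongest sites below its top 10%, Paupar KD replicate 2 had 7, control KD replicate 1 had 15 and control KD replicate 2 had 21. The lowest was the promoter of Rpl7, a protein gene of the large ribosomal subunit, whose summit ranked 15484 in Paupar KD replicate 1 and 3494 in Paupar KD replicate 2, against 5273 and 4248 in control KD replicates 1 and 2. The site nearest Ezh2, the methyltransferase of Polycomb complexes, ranked 11696 in Paupar KD replicate 1 and 1150 in Paupar KD replicate 2, against 2423 and 2727 in control KD replicates 1 and 2. Both summits stood lowest in the list of Paupar KD replicate 1.

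**Figure D3:**
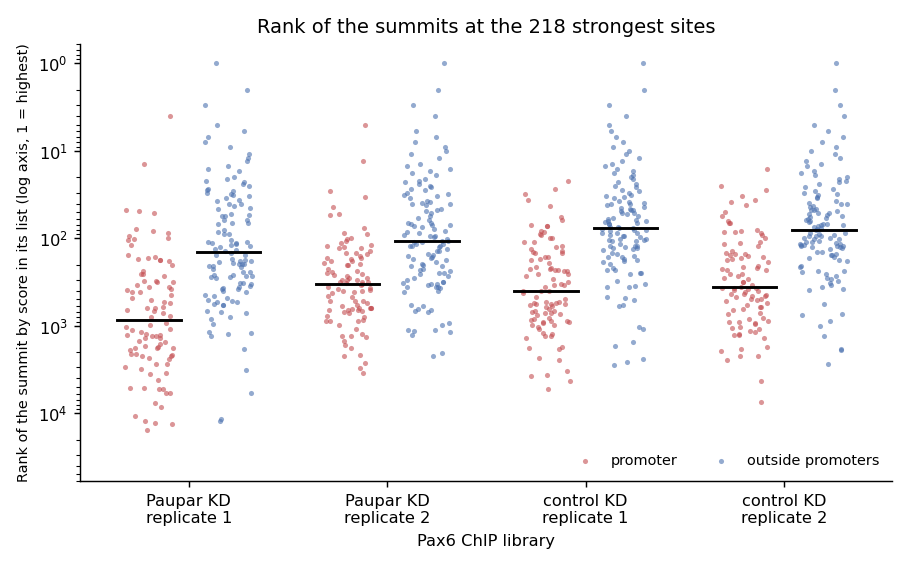
Rank by score of the summit at each of the 218 strongest sites within the list of its own library (log axis, 1 is the highest score), for the 4 libraries, with promoter sites and sites elsewhere apart and black bars at the medians. The bar of the promoter sites stands lower in every library, and the lowest point is Rpl7, at rank 15484 in Paupar KD replicate 1.

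The 4 summits of a strongest site lay close together. The distance between the outermost of them had a median of 31.5 bp (95% interval of the median 27 to 36), against 96 bp at other sites with 4 summits. It was at most 50 bp at 164 strongest sites (75.2%) and at 1061 other sites (21.1%), and the widest was 163 bp. At Wipi2 it was 10 bp, and at the intron site of Fgfr2 it was 41 bp. Both sets required summits within 250 bp of the site's middle, and they differ in signal by the rule. The part of signal in this contrast was not tested.

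In the authors' deposited table the Paupar KD concentration of the strongest sites had a median of 7.95 and ran between 7.02 and 9.81, and that of control KD had a median of 8.40 and ran between 8 and 10.01. The authors' log2 change, Paupar KD minus control KD, had a median of -0.53, with quartiles of -0.68 and -0.39, against -0.27 at the other sites with 4 summits and -0.03 over all sites of the deposited table. A total of 202 strongest sites (92.7%) had a change below 0 in the authors' deposited table, 15 a change above 0 and 1 a change of 0. Because the minimum was set on control KD alone, no direction was read from these values. Sites chosen instead by a Paupar KD concentration of at least 8 and 4 summits numbered 117, and 103 of them were strongest sites, which is 47.2% of the strongest sites and 88.0% of the 117.

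By the authors' false discovery rate (FDR) below 0.05, 38 of the 218 strongest sites (17.4%) were lower after Paupar KD and 3 (1.38%) were higher in the deposited table. Over all sites of the authors' deposited table the percentages were 0.846 lower and 3.26 higher, and over the sites with 4 summits 2.42 and 1.79. Since the rule used the control KD values of this contrast, nothing is read from the strongest sites' counts.

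The 5 largest falls among the called sites included both sites of Snd1, which encodes a nuclease-domain protein of RNA regulation. In the authors' deposited table its intron 15 site had 7.02 in Paupar KD and 8.14 in control KD (log2 change -1.12, FDR 0.00235), and its intron 14 site 7.21 and 8.17 (-0.96, FDR 0.00739). The site assigned to Rybp, a Polycomb partner, had 7.25 in Paupar KD and 8.31 in control KD (-1.06, FDR 0.000573) by the authors' deposited table. It lay between genes, 69.7 kb from the Rybp start, and in a RefSeq promoter window of Gm33448. The other falls were at the promoter of the phosphatase gene Dusp10, with 7.18 in Paupar KD and 8.15 in control KD (-0.97, FDR 0.0143), and at Gm13029, with 7.71 and 8.66 (-0.95, FDR 0.00167), again in the authors' deposited table.

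The 3 rises were at B230214G05Rik, Trp53inp2 and Kcne2. The intron 1 site of B230214G05Rik had 9.24 in Paupar KD and 8.46 in control KD (log2 change 0.78, FDR 0.00371) by the authors' deposited table, and ranked 8 and 16 in Paupar KD replicates 1 and 2 and 46 and 37 in control KD replicates 1 and 2. The site 11.2 kb upstream of Trp53inp2, an autophagy regulator, had 8.90 and 8.23 (0.67, FDR 0.0256) by the authors' deposited table, with ranks of 11 and 12 in Paupar KD and 48 and 47 in control KD. The promoter site of Kcne2, a potassium channel subunit gene, had 9.17 in Paupar KD and 8.54 in control KD (0.63, FDR 0.0497) there, in the authors' deposited table, with ranks of 4 and 5 in Paupar KD and 31 and 33 in control KD. These 3 sites were picked by the FDR of the same contrast, and the lists differ in length, so no change is read from their ranks.

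**Figure D4:**
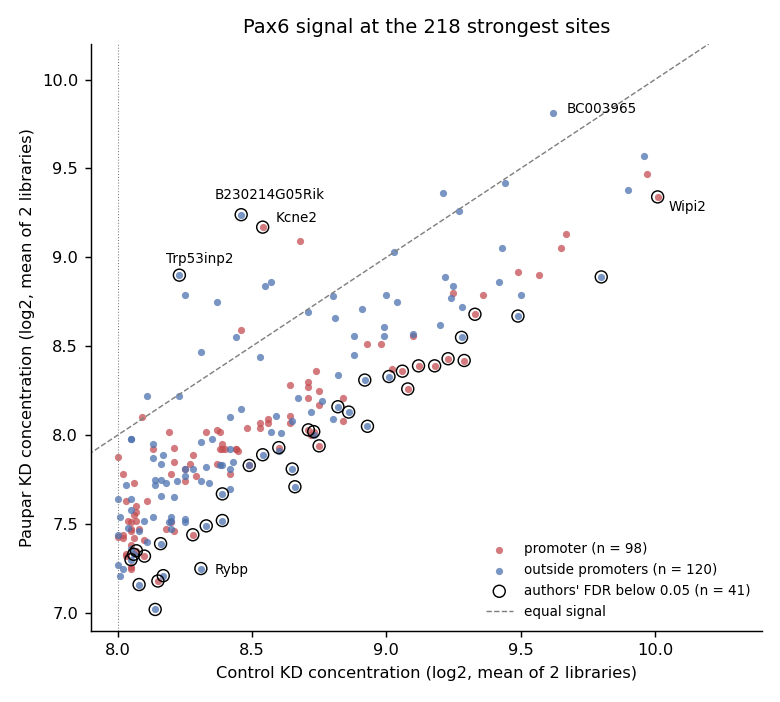
Concentration in Paupar KD against that in control KD, both log2 means of 2 libraries from the authors' deposited table, for the 218 strongest sites, coloured by promoter or elsewhere, with the line of equal values and rings around the sites with an FDR below 0.05. Of the points, 202 lie below the line, and the 3 called rises, B230214G05Rik, Trp53inp2 and Kcne2, lie above it.

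Over all sites with 4 summits, 4.15% were strongest sites, and each list's count is given beside its number of sites with 4 summits for reading against that share. No site of the alpha-cell identity list was a member, out of 12 with 4 summits, too few to read a count of 0 against that share, and the highest control KD concentration among these was 7.26 in the authors' deposited table. The promoter site of Gcg, the glucagon precursor gene, had 7.64 in Paupar KD and 7.01 in control KD in the authors' deposited table. In the authors' deposited table the highest site of Irx1, a homeobox gene, had 6.02 in Paupar KD and 6.33 in control KD. That of Ttr had 4.85 in Paupar KD and 4.73 in control KD there, and both had summits in all 4 lists. The highest site of Irx2 had 4.84 in Paupar KD and 5.32 in control KD in the authors' deposited table. It had no summit within 250 bp in any of the 4 lists. Sites near a gene do not measure its expression, so these markers do not check the cell type. The beta-cell identity list had no member among 17 sites with 4 summits, which is again too few to read against 4.15%, with a highest control KD concentration of 7.30 in the authors' deposited table. Ins1, Ins2 and Ppy had no site in the deposited table by the authors.

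Islet transcription factor genes had 3 strongest sites among 50 with 4 summits, or 6.0%, against that 4.15%. The promoter of Foxp4, a forkhead gene, had 7.42 in Paupar KD and 8.06 in control KD by the authors' deposited table. Foxa2, a pioneer factor gene, had 7.54 in Paupar KD and 8.01 in control KD at 60.6 kb in the authors' deposited table. Both lay below the median control KD concentration of the strongest sites.

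At the Pax6 locus 1 of 8 sites with 4 summits was a strongest site, 566 bp upstream of the start of Paupar (chr2:105661909-105662008). It had 7.78 in Paupar KD and 8.20 in control KD (FDR 0.351) by the authors' deposited table. Its summit ranked 320 and 146 in Paupar KD replicates 1 and 2 and 236 and 146 in control KD replicates 1 and 2. The highest site of Pax6 itself had 7.23 in Paupar KD and 7.52 in control KD in the authors' deposited table, below the minimum.

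Genes of hormone packing, release and excitability had 1 to 3 members a list. Vgf, a granule protein gene, had a promoter site with 8.02 in Paupar KD and 8.33 in control KD in the authors' deposited table, and Syt13, a synaptotagmin gene, had an intron 1 site with 8.86 and 8.57. The granule list had 1 member of 14 sites with 4 summits, the exocytosis list 1 of 13 and the potassium channel list 3 of 33 (7.14%, 7.69% and 9.09%, against 4.15% over all sites with 4 summits), namely Kcne2, Kcnj6 and Kcne1. By concentration in the authors' deposited table, Kcnj6, an inward rectifier gene, had 7.53 in Paupar KD and 8.25 in control KD, and Kcne1, the neighbour of Kcne2 on chromosome 16, had 7.93 and 8.21. The list of other islet hormones had none of 2, too few to read against 4.15%. Of receptors and enzymes outside the lists, chosen after their values were seen, Adra2a, an adrenergic receptor gene, had a promoter site with 8.09 in Paupar KD and 8.56 in control KD, and Th, tyrosine hydroxylase, an intron 1 site with 8.33 and 9.01, in the authors' deposited table. Vipr1, the receptor gene for vasoactive intestinal peptide, had 8.22 in Paupar KD and 8.11 in control KD in the authors' deposited table.

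Signalling and autophagy lists had 1 to 3 members each, or between 3.57% and 7.89% of their sites with 4 summits, against 4.15% over all such sites. The cyclic AMP list had 3 of 46, at Pde1c and at Pde6c. Pde6c, a cone phosphodiesterase gene, had 8.21 in Paupar KD and 8.67 in control KD in the authors' deposited table. Its enzyme acts on cyclic GMP, so the list is wider than its name. The MAP kinase list had 2 of 30, at Dusp10 and at the 3′ UTR of Map3k21, which had 9.36 in Paupar KD and 9.21 in control KD in the authors' deposited table and ranked 3, 3, 2 and 7. The insulin and PI3K list had 1 of 28 (Plekha1) and the list of Rab and TBC1D genes 2 of 33 (Dennd2a and Tbc1d30). The Wnt list had 1 of 16, at Ctnnbl1, matched by its symbol. Ctnnbl1 encodes a splicing protein and not a Wnt component, so no Wnt pathway gene is read from this count. The authors' deposited table gave the promoter of Tbc1d30, a GTPase-activating protein gene, 8.10 in Paupar KD and 8.09 in control KD. The autophagy list had 3 of 38, at Wipi2, Snx30 and Atg13, a subunit gene of the Ulk1 complex. Snx30, a sorting nexin gene, had 7.81 in Paupar KD and 8.28 in control KD, and Atg13, whose sequence held few CG dinucleotides, 7.78 and 8.02, in the authors' deposited table.

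Lists of gene regulation, protein synthesis and transport had between 3.26% and 11.8% of their sites with 4 summits among the strongest, against 4.15% over all such sites, where they had any. The zinc finger list had 5 of 87 (Zfp648, Zfp568, Zfp651 and Zfp958 among them) and the chromatin list 4 of 55 (Ezh2, Arid5b, Arid1b and Kdm3a). The splicing list had 4 of 52 (Cherp, Ddx54, Hnrnpa2b1 and Ddx31). Of these, Ddx54 and Ddx31 are helicase genes known for ribosome assembly rather than splicing, so this list is also wider than its name. The Polycomb gene Ezh2 had 8.61 in Paupar KD and 8.99 in control KD at -55.5 kb, and Arid5b, a DNA-binding cofactor gene, 8.19 and 8.76 at -4.51 kb, in the authors' deposited table. The promoters of the RNA-binding protein gene Hnrnpa2b1 and the helicase gene Ddx54 had 8.27 and 8.25 in Paupar KD, against 8.71 and 8.75 in control KD, in the authors' deposited table. Klf, Sp and Egr factors had 2 of 17, at the promoters of Klf10 (8.21 in Paupar KD and 8.84 in control KD) and Sp1 (7.44 and 8.28, FDR 0.026), by the authors' deposited table. The cytosolic ribosomal list had 3 of 32 (Rps28, Rpl7 and Rpl19), the mitochondrial ribosomal list 1 of 17 (Mrps14), the translation factor list 1 of 23 (Eif4g3) and the solute carrier list 3 of 92 (Slc2a5, Slc24a2 and Slc38a10). The promoter of Rps28, whose sequence is shown above with no match, had 8.02 in Paupar KD and 8.73 in control KD (FDR 0.0317) by the authors' deposited table. Rpl7 had 7.77 and 8.29 there, Mrps14 7.38 and 8.05, Eif4g3 8.04 and 8.53 and the fructose transporter gene Slc2a5 8.51 and 8.93 in Paupar KD and control KD, in the authors' deposited table. The lists of lens and neural genes (16 sites with 4 summits), histones (10), oxidative phosphorylation (20), proteasome (23), protein folding (20) and cell cycle (27) had no member. Each had too few such sites to read a count of 0 against 4.15%. These counts go by the 1 gene assigned to a site. The Rps28 site also lay in promoter windows of Ndufa7, a gene of respiratory complex I on the opposite strand. In all, 20 of the 29 lists had at least 1 strongest site and 9 had none, and 45 strongest sites (20.6%) belonged to a listed gene, against 15.8% of the other sites with 4 summits.

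Just inside the minimum, at 8 in control KD in the authors' deposited table, lay the sites of Edn3, En1, Gm13056, Plekha5 and Ralgapa2, with 7.27, 7.44, 7.43, 7.88 and 7.64 in Paupar KD, in that order. By the authors' deposited table the sites of Nfasc, Rpgrip1l, Snd1 and Stim2 lay just outside, at 7.98 in control KD with 4 summits and at 7.94, 8.09, 7.48 and 7.16 in Paupar KD. The sites on either side of the minimum thus overlapped in their Paupar KD values.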

How the data were processed

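Pax6 ChIP-seq was deposited for 2 Paupar KD and 2 control KD libraries of alphaTC1 cells, among 8 libraries with inputs. Bowtie2, MACS2, DiffBind and ChIPseeker and the build mm10 are named, without versions, per the submitters' processing notes; how libraries were scaled to each other, and which test was run, is not stated in the labels or headers. The authors' table held 26244 sites of 100 bp with log2 group means and no value per library, a log2 fold of control KD minus Paupar KD (sign turned here), a p-value and an FDR. The log2 base was checked: the mean concentration equalled the log2 of the mean of the 2 linear group values within 0.01 at every site. The authors' deposited summit lists gave a score read as −log10 q, whose lowest value lies near a q of 0.01. For control KD replicate 2 the list's name shows a different replicate number, and the deposited sample decided. Read depth is unknown, so no counting interval was given for a signal.

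Sites, summits within 250 bp, RefSeq annotation (GRCm38.p6, all 218 gene IDs matched), exact Clopper-Pearson 95% intervals and order-statistic intervals of medians were computed with Python 3.11.15, pandas 2.3.3, numpy 2.4.6 and SciPy 1.17.1. An exact permutation of the 4 libraries cannot give a p below 0.33, so no test of ranks is reported, and scripts were tested on simulated data. Members and the 29 gene lists were chosen with earlier results of these data known. Genes named are the 10 highest sites in and outside promoters, the top members of each list, the largest called changes, the genes with 2 sites, the sites nearest the minimum, those at the Pax6 locus and the 5 farthest from a start; Adra2a, Th and Vipr1 and the low-ranked examples were added after their values were seen. Some genes that this rule takes are not reported here. Alternatives were other minimums, summit distances, scores, FDR limits, library omissions and motif windows.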

Additional observations from a re-analysis of the deposited data

How the results depend on the processing

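Of 129 values under an alternative, 99 kept their direction and, for a share or a median, stayed within its 95% interval, or, for a count, within 1.5 times the reported one. A further 29 moved past these limits and 1 reversed; the rank difference was judged by its direction alone. The number of strongest sites was 409 with a minimum of 7.5, 92 with 8.5 and 117 with the minimum set on Paupar KD; leaving out 1 library at a time it ran between 218 and 246. The median log2 change was -0.44 with the minimum on Paupar KD and -0.48 with it on the mean of both groups. It was -0.24 when centred on all sites with 4 summits. Without the summit list of 1 library it ran between -0.54 and -0.53. The concentrations are group means, so a library left out still counted in every concentration, log2 change and FDR. This range is therefore no check of the signal against a single library. Sites lower after Paupar KD by the authors' deposited FDR numbered 58 with a minimum of 7.5, 23 with 8.5, 18 with the minimum on Paupar KD, 76 at an FDR below 0.1 and 10 below 0.01. Sites higher numbered 5, 1 and 9 under the first 3 of these, 5 with the minimum on the mean and 1 at an FDR below 0.01. The cause of these differences was not tested. Without 1 library the promoter share ran between 45.0% and 50.4%, and the median distance between 2581 and 4562 bp, with 50.4% and 2581 bp being the values without Paupar KD replicate 1. The rank difference, -0.283 percentile points, ran between -0.651 and 0.0848 without 1 library and reversed without Paupar KD replicate 1; the cause was not tested. The spread of the summits was 22.5 to 26 bp with 3 libraries, where fewer positions enter. With the replicate block the rank difference was -0.283, as without it, and 2 pairs allow no test; the replicates share a number only. For the concentrations no paired fit could be made, because the site table holds group means. In the site's own 100 bp alone, CCGGAAG was in 21.4% of the windows, GGGCGG in 31.0%, CCAAT in 4.76% and TCACGC in 2.38%. Unknown read depth limits all of these values.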

Other observations

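The strongest sites were unevenly spread over chromosomes. Chromosome 2 held 35 of the 218 (16.1%, exact 95% interval 11.4 to 21.6), against 8.37% of the other sites with 4 summits, and chromosome 6 held 21 (9.63%, against 6.06%). With no requirement on summits, chromosome 2 held 38 of 262 sites of this strength (14.5%). The other sites with 4 summits had a median control KD concentration of 5.84 on chromosome 2 and 5.95 elsewhere, in the authors' deposited table. Without chromosome 2 the promoter share of the strongest sites was 45.9% and their median log2 change in the authors' deposited table was -0.54.

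Of the 44 sites of this strength that lacked a summit, the highest was the promoter of Sfi1, a centrosome gene, with 9.07 in Paupar KD and 9.42 in control KD in the authors' deposited table and summits in 2 libraries. Those summits ranked only 4287 of 17942 in Paupar KD replicate 2 and 11286 of 14311 in control KD replicate 1. The promoter of Mbd3, a subunit gene of the NuRD complex, had 8.43 in Paupar KD and 9.31 in control KD (FDR 0.00176) there, in the authors' deposited table. The nearest summit of Paupar KD replicate 1 lay a median of 24.7 kb from these sites, with a range of 0.5 to 142 kb. Strongest sites with no other site within 10 kb numbered 102 (46.8%), against 43.5% of the other sites with 4 summits.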
